A study of Homo sapiens with 54 samples.

Results

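hMSN-like cells, neurons with features of the medium spiny neurons of the striatum, were compared by RNA-seq 1 h after a single dose of 1 µM dopamine (Acute 1 h, 3 libraries) and after PBS (3 libraries). These 6 libraries were taken by their labels alone, from 53 libraries with a deposited table in a series that also tested 1 mM dopamine, repeated dosing, later sampling and receptor agonists. All cultures came from H9 (WA09), an established human embryonic stem cell line, so the comparison rests on 1 line, and the labels name no genetic change in either group. Dopamine was given as dopamine hydrochloride in ascorbic acid while a part of the medium was exchanged, and the controls are labelled PBS, so dopamine and its vehicle cannot be told apart here. The acute cultures were dosed at an earlier day in vitro than the chronic cultures of the study. The day of the 1 µM PBS cultures is not given in the sources used here, so culture day and dopamine cannot be told apart either. The labels number the libraries 1 to 3 in each group and name no culture, so a p-value measures the spread between these libraries, a part of which may be technical. In bulk RNA, fewer cells of a type and less RNA per cell cannot be told apart.

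Reads on exons were the main measurement, because the share of gene reads that fell on introns varied between these libraries (23.8%, 31.2% and 20.2% after dopamine, and 23.4%, 23.6% and 22.3% after PBS). The Acute 1 h libraries held 5755919, 8044808 and 8629828 exon reads and the PBS libraries 11026492, 9584706 and 9718506, so low genes were measured less precisely after dopamine. Replicate 2 of each group stood apart from the other libraries. Mitochondrial genes took 12.4% of the exon reads of PBS replicate 2 and 12.6% of those of Acute 1 h replicate 2, against 4.25% to 7.50% in the other 4 libraries, and PBS replicate 2 had exon reads for 16085 genes against 20989 and 21299 in the other PBS libraries. Total counts are therefore also given without both of these libraries, as are counts for the immediate early, Notch, glycolysis and HIF target lists. For the other lists and for single genes, calls in that fit are not reported here. Expression levels are given as TPM, reads per exon length scaled to a common sum, in the order of replicates 1, 2 and 3. The 13 mitochondrially encoded protein genes summed to 1.752e+05 to 4.266e+05 TPM after PBS and 2.068e+05 to 4.479e+05 TPM after dopamine. With a common sum, the TPM of other genes is lower where the mitochondrial share is high, as in replicate 2 of each group. The same limits TPM set beside the 1 mM libraries. There mitochondrial genes took 2.72% to 2.95% of exon reads after PBS and 2.51% to 2.61% in Acute 1 h.

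Dopamine acts on G protein-coupled receptors of the D1 class, which raise cyclic AMP, and of the D2 class, which lower it. In medium spiny neurons, cyclic AMP and calcium reach the kinases PKA and ERK, and these activate transcription factors that are already present, among them CREB and SRF. Their targets, the immediate early genes, are transcribed within minutes without new protein, and many of them encode transcription factors of the FOS, JUN, EGR and NR4A families. CREB binds the sequence TGACGTCA or its shorter form TGACG, and SRF binds the CArG box. Genes of glycolysis are shared targets of the hypoxia-inducible factor HIF, which binds ACGTG and is held low by prolyl hydroxylases that use oxygen, iron and ascorbate.

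The stretch of 250 bases before the start site is shown for 5 genes on which the results below turn, as given by RefSeq for GRCh38.p14. EGR1 (chr5:138465229-138465478, + strand), FOS (chr14:75278578-75278827, + strand) and FOSB (chr19:45467746-45467995, + strand) stand for the immediate early genes, and PGK1 (chrX:78103998-78104247, + strand) for glycolysis. HES1 (chr3:194135898-194136147, + strand) stands for the Notch targets. Capitals mark TGACG or its complement CGTCA and CArG boxes in EGR1, FOS and FOSB, ACGTG or its complement CACGT in PGK1, and GTGGGAA, the motif of the Notch effector RBPJ, in HES1.
EGR1: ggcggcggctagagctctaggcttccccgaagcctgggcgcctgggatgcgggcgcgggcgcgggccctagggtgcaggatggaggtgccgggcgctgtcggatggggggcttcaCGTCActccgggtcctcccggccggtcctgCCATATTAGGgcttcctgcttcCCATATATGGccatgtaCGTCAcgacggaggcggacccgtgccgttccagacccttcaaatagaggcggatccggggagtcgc
FOS: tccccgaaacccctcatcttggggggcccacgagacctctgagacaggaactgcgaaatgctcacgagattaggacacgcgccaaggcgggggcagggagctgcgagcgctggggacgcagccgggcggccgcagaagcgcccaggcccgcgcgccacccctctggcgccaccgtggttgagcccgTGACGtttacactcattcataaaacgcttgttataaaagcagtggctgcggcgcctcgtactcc
FOSB: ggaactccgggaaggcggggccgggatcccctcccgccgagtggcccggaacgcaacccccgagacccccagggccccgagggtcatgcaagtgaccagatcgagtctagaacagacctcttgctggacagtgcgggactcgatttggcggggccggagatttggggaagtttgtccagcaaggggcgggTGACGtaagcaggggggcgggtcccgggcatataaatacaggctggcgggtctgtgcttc
PGK1: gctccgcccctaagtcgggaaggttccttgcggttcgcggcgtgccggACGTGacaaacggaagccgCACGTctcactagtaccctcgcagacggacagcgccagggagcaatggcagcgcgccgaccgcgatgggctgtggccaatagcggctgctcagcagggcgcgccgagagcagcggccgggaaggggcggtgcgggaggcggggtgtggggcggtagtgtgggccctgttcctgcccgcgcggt
HES1: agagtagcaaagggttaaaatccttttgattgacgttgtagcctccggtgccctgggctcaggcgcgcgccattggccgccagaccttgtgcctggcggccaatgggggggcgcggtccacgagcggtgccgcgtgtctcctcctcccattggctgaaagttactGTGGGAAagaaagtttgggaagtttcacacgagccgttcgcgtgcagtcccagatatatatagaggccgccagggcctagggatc
The EGR1 stretch held 2 CArG boxes and 2 matches to TGACG, the FOS and FOSB stretches 1 match to TGACG each, the PGK1 stretch 2 ACGTG cores and the HES1 stretch 1 GTGGGAA. Counted on both strands, 24.9% of 27305 genes with a RefSeq stretch held TGACG, as did 16 of the 23 immediate early transcription factor genes that had one. The full TGACGTCA was found in 2.03% of all these genes and in 2 of the 23, neither of them past the test. A CArG box, which was searched for apart from TGACG and shares no letters with it in these stretches, was found in 1.44% of all these genes and in 3 of the 23. ACGTG was found in 21.7% of all genes, in 19 of 33 genes of glycolysis and pyruvate metabolism and in 18 of 27 other HIF target genes, but also in 9 of the 23 immediate early genes and in 5 of 11 targets and ligands of TGFβ and BMP. GTGGGAA was found in 6.69% of all genes and in 5 of 7 Notch targets and ligands. The annotated PGK1 gene starts upstream of the stretch shown, at base 77910739. A match of letters is a description, not a site or a cause.

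RNA of pan-neuronal markers was high in every library, and the striatal markers summed to less. Sums over different genes do not measure the share of a cell type. The pan-neuronal markers (MAP2, TUBB3, STMN2 and others, 8 genes) summed to 2341 to 2963 TPM after PBS and 2216 to 2532 TPM after dopamine, with none of the 8 past the test by exon reads. The 27 striatal markers summed to 209 to 257 and 231 to 262 TPM. BCL11B, a transcription factor of striatal and deep cortical neurons, stood at 42.0, 27.4 and 42.1 TPM after PBS and PPP1R1B, which encodes DARPP-32, at 7.70, 9.45 and 10.1 TPM. By immunostaining, the study reported a large share of DARPP-32-positive neurons in H9 cultures, which RNA levels do not measure. PDYN, the opioid peptide gene of D1-type neurons, had no exon read in any PBS library. The excitatory neuron markers summed to 1150 to 1371 TPM after PBS and 923 to 1103 TPM after dopamine, radial glia markers to 3302 to 4367 and 2570 to 4136 TPM, of which VIM alone had 2375, 1769 and 2463 and 1163, 801 and 1309 TPM, and cycling cell markers to 1343 to 1563 and 1283 to 1420 TPM. Microglia markers summed to at most 2.21 TPM and pluripotency markers to at most 13.5 TPM in any of the 6 libraries.

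Of 16541 genes tested by edgeR's quasi-likelihood test, 954 (5.77%) had an adjusted p under 0.05, 537 higher (3.25%) and 417 lower (2.52%) after dopamine. Rose, fell and passed refer to this threshold. A single value in parentheses after a gene is its log2(fold change), and values after a library left out are the adjusted p without it. A DEG also had to change by 1 or more on the log2 scale and to reach a mean of 1 TPM in the higher group, which held for 399 genes (2.41%), 227 higher (1.37%) and 172 lower (1.04%). They comprised 337 protein-coding genes, 53 lncRNAs and 9 genes of other types, and 83 of them changed by at least 2 on the log2 scale, 41 upward and 42 downward. By exon CPM (exon reads scaled to the same total in each library), the 3 dopamine libraries did not overlap the 3 PBS libraries for 393 of the 399 DEGs, against 20.2% of all genes tested (12.4% higher and 7.78% lower). The DEGs were picked from these same libraries, so this count describes them and is no separate test. The test drew its estimate of spread from the 15 libraries of the 5 conditions at 1 µM. A fit of only the 6 libraries called 52 genes, and with the replicate number as a block in those 6 libraries 609 genes had an adjusted p under 0.05 and 304 were DEGs. The labels do not state that libraries of the same number are a pair. Without either replicate 2, 396 DEGs and 1028 genes with an adjusted p under 0.05 were found. Without PBS replicate 1 and without PBS replicate 3, 530 and 531 genes had an adjusted p under 0.05.

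Of the lists examined, which differ in size, immediate early transcription factors held the most genes that rose by count. The shorter lists of Notch (5 of 10) and of TGFβ and BMP (6 of 11) had no smaller share that rose. All 29 genes of the immediate early list passed the filter on low counts. Of these 13 rose and 2 fell, against 3.25% and 2.52% of all genes tested. The list's median log2(fold change) was 1.14 against 0.020 for all genes tested. EGR1 (ENSG00000120738, chromosome 5, 138465479 to 138469303, + strand), a zinc finger factor induced by ERK and SRF, stood at 11.5, 6.89 and 11.9 TPM after PBS and 256, 143 and 206 TPM after dopamine. Each dopamine library was above each PBS library by a wide margin, with replicate 2 the lowest of both groups (log2(fold change) 4.34, SE 0.23, adjusted p = 1.58e-07). FOS (ENSG00000170345, chromosome 14, 75278826 to 75282230, + strand), a subunit of AP-1, had 7.36, 7.73 and 6.20 TPM after PBS and 95.5, 54.9 and 104 TPM after dopamine. The PBS libraries lay close together and replicate 2 was again the lowest of the dopamine libraries (log2(fold change) 3.53, SE 0.24, adjusted p = 2.17e-06). FOSB (ENSG00000125740, chromosome 19, 45467995 to 45475179, + strand), an AP-1 subunit whose truncated form builds up in striatum with repeated stimulation, was below 1 TPM in all PBS libraries (0.201, 0.719 and 0.870) and at 14.6, 6.96 and 18.6 TPM after dopamine (log2(fold change) 4.39, SE 0.61, adjusted p = 0.000721). The groups did not overlap.

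EGR2 (ENSG00000122877, chromosome 10, 62811996 to 62919900, - strand), a relative of EGR1, had no exon read in any PBS library and 5.35, 5.45 and 6.16 TPM after dopamine. Taken against 3 reads over the PBS group, it was at least 59.0-fold higher, and it passed the test (adjusted p = 0.000577). EGR3 had 0.222, 1.26 and 0.160 TPM after PBS and 22.8, 10.9 and 20.6 TPM after dopamine (log2(fold change) 4.85, SE 0.73, adjusted p = 0.00123), and EGR4 0, 0 and 0.170 and 6.44, 0.170 and 3.44 TPM (log2(fold change) 5.50, SE 1.40, adjusted p = 0.0329). All 4 EGR genes thus rose, but EGR4 replicate 2 lay at the level of the highest PBS library, and the call of EGR4 was lost without each library but Acute 1 h replicate 2 (0.0601 to 0.132) and with the replicate block. JUNB, the partner of FOS proteins in AP-1, had 31.1, 10.7 and 25.1 TPM after PBS and 208, 43.1 and 295 TPM after dopamine. Every dopamine library exceeded every PBS library, while replicate 2 stayed far below the other two after dopamine (log2(fold change) 3.02, SE 0.49, adjusted p = 0.00228). NR4A3, an orphan nuclear receptor, had narrow groups, 6.89, 7.17 and 7.59 TPM and 26.2, 27.4 and 27.8 TPM (log2(fold change) 1.92, SE 0.20, adjusted p = 7.98e-05).

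NR4A1, another orphan receptor, rose from 13.2, 3.42 and 11.8 TPM to 52.2, 12.4 and 63.4 TPM (log2(fold change) 2.19, SE 0.43, adjusted p = 0.00805). FOSL2 and CSRNP1 rose with log2(fold change) values of 2.00 and 2.74, ATF3 with 0.97 and IER5L with 1.52. The call of ATF3 was lost without PBS replicate 1 (0.0667), PBS replicate 3 (0.0884) or Acute 1 h replicate 1 (0.0751), and that of IER5L without each library but Acute 1 h replicate 2 (0.0636 to 0.118). The groups of IER5L overlapped. NPAS4, a factor specific to neuronal activity, stood at 0.434, 0 and 0.235 and 1.86, 1.29 and 3.84 TPM and did not pass (3.38, adjusted p = 0.0529), nor did NR4A2 (0.66, adjusted p = 0.0651), MYC (0.69, adjusted p = 0.163) or IER2 (1.14, adjusted p = 0.211). JUN and KLF6 moved the other way. JUN, the main partner of FOS, had 299, 179.8 and 262 TPM after PBS and 159, 116 and 188 TPM after dopamine (log2(fold change) -0.65, SE 0.13, adjusted p = 0.00793). KLF6, a zinc finger factor, had 63.7, 43.3 and 55.6 and 29.1, 26.7 and 28.1 TPM (log2(fold change) -0.91, SE 0.13, adjusted p = 0.000908). For KLF6 the groups did not overlap, while JUN in Acute 1 h replicate 3 lay just above its lowest PBS library by TPM and below all of them by CPM. With only the 6 libraries in the fit, 5 of the 29 rose and none fell by edgeR, and with the block in those 6 libraries 13 rose and 2 fell. Without either replicate 2, 16 rose and 2 fell.

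**Figure D1:**
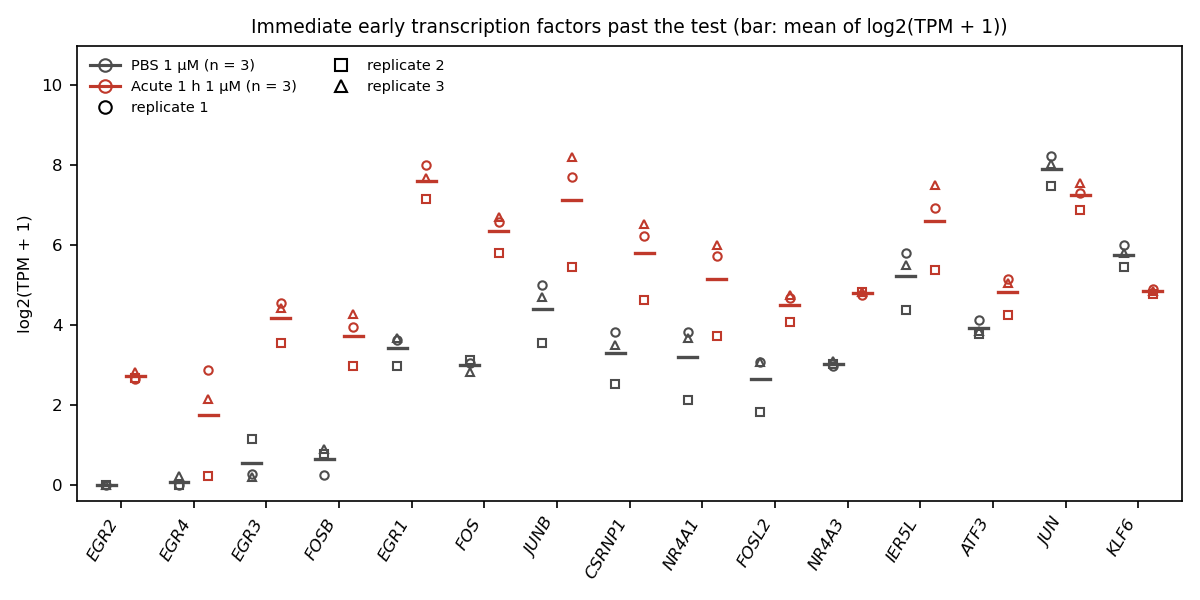
Level of the 15 immediate early transcription factor genes past the test, as log2(TPM + 1), in 3 PBS libraries (grey) and 3 Acute 1 h libraries (red) at 1 µM; circles, squares and triangles mark replicates 1, 2 and 3 and bars the mean of log2(TPM + 1). EGR2 is at 0 in all PBS libraries and EGR1 rises from 6.89 to 11.9 TPM to 143 to 256 TPM, while JUN and KLF6 at the right are lower after dopamine.

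Among 21 tested genes that neuronal activity induces outside the transcription factors, 8 rose and 2 fell, with a median log2(fold change) of 0.51. NPTX1 encodes neuronal pentraxin, a secreted protein that clusters AMPA receptors, and stood at 27.2, 16.7 and 26.1 TPM after PBS and 79.9, 42.8 and 91.5 TPM after dopamine (log2(fold change) 1.61, SE 0.17, adjusted p = 8.86e-05). The lowest dopamine library was above the highest PBS library. ARC, a regulator of AMPA receptor uptake at synapses, had 17.1, 6.78 and 12.7 TPM and 79.3, 17.3 and 100.5 TPM (log2(fold change) 2.41, SE 0.52, adjusted p = 0.0144). Replicate 2 after dopamine lay just above the highest PBS library, and the call was lost without PBS replicate 2 (0.0548) or PBS replicate 3 (0.0614). GADD45G, a stress-inducible regulator of growth arrest, rose from 14.9, 17.9 and 18.9 to 128, 47.5 and 186 TPM (log2(fold change) 2.72, SE 0.39, adjusted p = 0.000877), and RASD1, a small G protein, from 8.09, 11.2 and 10.1 to 67.7, 15.0 and 84.2 TPM (log2(fold change) 2.39, SE 0.46, adjusted p = 0.00651). GADD45B overlapped between the groups, with 5.58, 7.64 and 6.42 and 22.4, 6.60 and 26.6 TPM (1.39, adjusted p = 0.101).

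CCN1 and CCN2, matricellular proteins induced by SRF and YAP, rose with log2(fold change) values of 1.12 and 1.08, but the call of CCN1 was lost without PBS replicate 2 (0.0512) or Acute 1 h replicate 3 (0.0595) and that of CCN2 without PBS replicate 2 (0.0545), PBS replicate 3 (0.0516) or Acute 1 h replicate 3 (0.0554), and neither passed by total gene reads. TRIB1 (0.79) lost its call without PBS replicate 1 (0.0581) or PBS replicate 3 (0.0513), and PCSK1 (0.87), a protease that matures peptide hormones, without each library but PBS replicate 1 and Acute 1 h replicate 1 (0.0572 to 0.0760). NRN1, a neuritin that promotes neurite growth, fell from 162, 109.5 and 160.2 to 77.7, 62.8 and 82.7 TPM (log2(fold change) -0.92, SE 0.11, adjusted p = 0.000292). PLK2 had a log2(fold change) of -0.53 and lost its call without each library but Acute 1 h replicate 2 (0.0796 to 0.0923). In the 6 libraries alone, 1 gene of the list rose and none fell, and with the block in them 8 rose and 1 fell. BDNF was not different by the test (0.51, adjusted p = 0.356), and HOMER1 was not either (0.29, adjusted p = 0.601).

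Of 15 ERK feedback regulators, the DUSP phosphatases and the SPRY and SPRED inhibitors, ERRFI1 rose (log2(fold change) 0.65, SE 0.16, adjusted p = 0.0291) and the other 14 did not pass, among them DUSP1 (1.03, adjusted p = 0.0824) and SPRY4 (-0.39, adjusted p = 0.375). The call of ERRFI1 was lost without PBS replicate 2 (0.0912), PBS replicate 3 (0.0886) or Acute 1 h replicate 1 (0.103). Of 16 cAMP and CREB response genes, 2 rose and 1 fell. SIK1B, a kinase that restrains CREB coactivators, had 29.9, 5.29 and 28.9 TPM after PBS and 152, 81.1 and 187 TPM after dopamine (log2(fold change) 2.79, SE 0.39, adjusted p = 0.000736). Its near-identical copy SIK1 had 4.71, 5.30 and 1.16 and 15.4, 13.0 and 24.9 TPM (2.16, adjusted p = 0.161), and how the reads were split between the pair is uncertain. PER2, a clock gene, rose by less (log2(fold change) 0.72, SE 0.17, adjusted p = 0.0200) and lost its call without PBS replicate 2 (0.0674), PBS replicate 3 (0.0622) or Acute 1 h replicate 1 (0.0851). CITED2, a CBP-binding protein that competes with HIF, fell from 141, 118 and 156 to 65.1, 55.0 and 85.4 TPM (log2(fold change) -1.01, SE 0.13, adjusted p = 0.000440). PER1 (0.47, adjusted p = 0.345) and CREM (-0.0089, adjusted p = 0.989) did not pass.

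Of 12 tested genes that shorten or tail mRNAs, BTG2, an antiproliferative gene that promotes removal of poly(A) tails, rose from 123, 73.5 and 128 to 306, 190.3 and 272 TPM (log2(fold change) 1.28, SE 0.14, adjusted p = 0.000125) with no overlap. ZFP36L2 rose and BTG3 fell, with log2(fold change) values of 0.57 and -0.62, and these calls were lost without each library but Acute 1 h replicate 2 (0.0595 to 0.125) and without each library but PBS replicate 3 and Acute 1 h replicate 2 (0.0521 to 0.114), respectively. TENT5B, a poly(A) polymerase, was low at 3.44, 0 and 1.18 and 5.08, 3.55 and 3.43 TPM and did not pass (1.53, adjusted p = 0.391). None of 13 SRF and actin targets passed the test by exon reads and edgeR, with a list median of -0.19. By total gene reads FHL2 rose (1.37, adjusted p = 0.0328) and the tropomyosin gene TPM1 fell (-0.57, adjusted p = 0.00905), and by introns 2 rose and 1 fell. MMP1, a collagenase, was too low to be tested, at 0.377, 1.86 and 1.23 TPM after PBS and 0, 0 and 0.691 TPM after dopamine.

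All 10 Notch targets and ligands were tested, of which 5 rose and none fell by exon reads, and the median log2(fold change) was 1.62. Notch receptors release an intracellular domain that joins RBPJ and switches on HES and HEY repressors, which hold neural progenitors back from neuronal differentiation. HES1 (ENSG00000114315, chromosome 3, 194136148 to 194138732, + strand) had 159.5, 128 and 176 TPM after PBS and 435, 322 and 631 TPM after dopamine (log2(fold change) 1.57, SE 0.17, adjusted p = 8.86e-05). HEY1 had 79.7, 50.6 and 73.0 and 195, 200.2 and 282 TPM (log2(fold change) 1.77, SE 0.14, adjusted p = 7.55e-06), and the groups of both genes were clear of each other in all 6 libraries. HES5 was higher in every dopamine library, 116, 41.7 and 106 against 280.3, 118 and 433 TPM (log2(fold change) 1.67, SE 0.42, adjusted p = 0.0304), but its dopamine replicate 2 lay only just above the highest PBS library and the call was lost without each library but Acute 1 h replicate 2 (0.0742 to 0.105). NRARP, a feedback inhibitor of Notch, rose from 58.6, 34.6 and 51.4 to 154, 109 and 205 TPM (log2(fold change) 1.71, SE 0.19, adjusted p = 9.31e-05). DLL1, a Notch ligand, rose from 71.7, 28.3 and 57.0 to 218, 80.5 and 289.8 TPM (log2(fold change) 1.91, SE 0.33, adjusted p = 0.00325). DLL4 (2.67, adjusted p = 0.0678), HEY2 (0.61, adjusted p = 0.127), DLL3 (-0.32, adjusted p = 0.801) and HES4 (0.28, adjusted p = 0.859) did not pass. A fit of the 6 libraries alone had 3 of the 10 higher, with the block in them 5, and without either replicate 2 6.

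Of 11 targets and ligands of TGFβ and BMP, 6 rose and 1 fell, with a median log2(fold change) of 1.01. The ID proteins bind bHLH factors and keep them off DNA, and BMP signaling induces them. ID1 rose from 56.4, 12.7 and 54.9 to 197, 100.5 and 303 TPM (log2(fold change) 2.33, SE 0.39, adjusted p = 0.00292), ID2 from 67.4, 39.4 and 73.5 to 161, 144 and 199.7 TPM (log2(fold change) 1.53, SE 0.15, adjusted p = 4.25e-05) and ID4 from 223, 167 and 237 to 407, 523 and 600.4 TPM (log2(fold change) 1.32, SE 0.14, adjusted p = 7.18e-05). PBS replicate 2 was the lowest library for all 3. ID3 rose as well (log2(fold change) 1.72, SE 0.45, adjusted p = 0.0372), with a call lost without each library but PBS replicate 1 and Acute 1 h replicate 2 (0.0626 to 0.141). SMAD7, an inhibitor of TGFβ receptors, went from 8.05, 7.08 and 9.84 to 24.7, 18.9 and 46.8 TPM (log2(fold change) 1.83, SE 0.23, adjusted p = 0.000336), and TGIF1, a corepressor of SMADs, had a log2(fold change) of 1.01 (adjusted p = 0.00734). TGFB1, the ligand itself, fell from 34.6, 31.8 and 33.0 to 13.3, 5.57 and 15.2 TPM (log2(fold change) -1.59, SE 0.24, adjusted p = 0.00123). Fitted alone, the 6 libraries gave 2 that rose and none that fell, and with the block in them 6 rose and 1 fell. Of 8 tested Wnt targets, AXIN2 rose (log2(fold change) 0.97, SE 0.27, adjusted p = 0.0464), a call lost without each library but Acute 1 h replicate 2 (0.0509 to 0.138) and by total gene reads.

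Several other transcription factors of neural progenitors were among the DEGs. The genes named in this paragraph were chosen after their values were seen, some of them as the 10 DEGs in each direction with the largest change among those with a group mean of at least 50 TPM and outside the lists. SOX21 (ENSG00000125285, chromosome 13, 94709622 to 94712545, - strand), an HMG-box factor that opposes SOX2 in progenitors, had 29.4, 22.9 and 29.2 TPM after PBS and 180.0, 145 and 248 TPM after dopamine. The lowest dopamine library was well above the highest PBS library (log2(fold change) 2.81, SE 0.16, adjusted p = 1.58e-07). NEUROG1, a proneural bHLH factor, rose from 13.3, 11.3 and 18.2 to 47.6, 40.2 and 83.7 TPM (log2(fold change) 2.00, SE 0.27, adjusted p = 0.000570), and NEUROD4, another bHLH factor of neurogenesis, from 6.82, 1.19 and 6.67 to 19.9, 38.2 and 36.5 TPM (log2(fold change) 2.84, SE 0.50, adjusted p = 0.00383). TFAP2C, an AP-2 factor, rose with 1.51 on the log2 scale, and NOG, which encodes the secreted BMP antagonist noggin, with 1.70. RSPO1, a secreted enhancer of Wnt signaling, had a log2(fold change) of 1.63, and MIR9-3HG, the host transcript of a neuronal miRNA, 1.73. NCOA5, a nuclear receptor coactivator, had 14.3, 15.8 and 17.4 TPM and 82.3, 58.4 and 95.5 TPM (log2(fold change) 2.29, SE 0.18, adjusted p = 5.51e-06). SOCS3, an inhibitor of JAK-STAT signaling, had 6.94, 3.90 and 9.13 and 42.1, 12.4 and 45.9 TPM (log2(fold change) 2.31, SE 0.48, adjusted p = 0.0106), with the call lost without PBS replicate 1 (0.0521). NFIX, a nuclear factor I family member, fell from 77.3, 55.5 and 84.1 to 26.1, 13.5 and 22.6 TPM (log2(fold change) -1.80, SE 0.20, adjusted p = 9.97e-05).

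Glycolysis and pyruvate metabolism was the list with the most genes that fell. Of 36 genes of glycolysis and pyruvate metabolism, 31 passed the filter on low counts, 14 fell and none rose, and the list's median log2(fold change) was -0.68. PGK1 (ENSG00000102144, chromosome X, 77910739 to 78129295, + strand), which makes ATP by phosphoglycerate kinase, had 233, 142 and 249.8 TPM after PBS and 72.5, 57.1 and 85.0 TPM after dopamine. The highest dopamine library was below the lowest PBS library, itself replicate 2 (log2(fold change) -1.51, SE 0.13, adjusted p = 2.02e-05). ENO1 (ENSG00000074800, chromosome 1, 8861000 to 8879190, - strand), enolase, had 583, 342 and 650.0 and 180.0, 128 and 246 TPM, again without overlap (log2(fold change) -1.49, SE 0.17, adjusted p = 0.000143). ALDOA, aldolase, had 656, 349 and 692 and 208, 96.7 and 266 TPM (log2(fold change) -1.57, SE 0.25, adjusted p = 0.00176), and ALDOC, its brain form, 124, 78.5 and 141 and 51.7, 21.9 and 41.0 TPM (log2(fold change) -1.58, SE 0.21, adjusted p = 0.000634). Replicate 2 was the lowest library of both groups for each of these 4 genes.

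HK2, the inducible hexokinase that starts the pathway, fell from 21.4, 29.1 and 35.0 to 6.02, 6.32 and 10.3 TPM (log2(fold change) -1.94, SE 0.25, adjusted p = 0.000440), whereas HK1, the form of most neurons, had 114, 86.5 and 132 and 84.8, 69.5 and 88.7 TPM and a call (-0.43, adjusted p = 0.0442) that was lost without each library but PBS replicate 1 and Acute 1 h replicate 2 (0.0702 to 0.152), with the replicate block and by total gene reads. PDK1, a kinase that shuts off pyruvate dehydrogenase, had 10.7, 10.9 and 13.3 and 3.98, 4.22 and 4.55 TPM (log2(fold change) -1.44, SE 0.19, adjusted p = 0.000440). SLC16A3, the lactate exporter MCT4, fell most within the list, from 9.94, 4.74 and 12.7 to 1.34, 0.456 and 1.84 TPM (log2(fold change) -2.90, SE 0.41, adjusted p = 0.000823). GPI (-1.34), PFKP (-1.16), TPI1 (-1.18), PKM (-0.98) and LDHA (-0.94) also fell, as did PGAM1 (-0.97), whose call was lost without each library but PBS replicate 2 and Acute 1 h replicate 3 (0.0943 to 0.136) and by total gene reads. GAPDH had the highest level in the list, 3887, 2163 and 3769 TPM after PBS and 2176, 962 and 2967 TPM after dopamine, overlapped between the groups and did not pass (-0.69, adjusted p = 0.115). The glucose transporters SLC2A1 (-0.78, adjusted p = 0.140) and SLC2A3 (-0.46, adjusted p = 0.114), the neuronal enolase ENO2 (-0.68, adjusted p = 0.0845) and LDHB (-0.065, adjusted p = 0.814) did not pass. With only the 6 libraries, 2 genes of the list fell, with the block in them 16, and without either replicate 2 13.

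HIF targets outside glycolysis showed 12 that fell and 1 that rose among 32 tested, with a median of -0.51. BNIP3 (ENSG00000176171, chromosome 10, 131966455 to 131982013, - strand), which directs mitochondria to autophagy, had 80.0, 82.7 and 105 TPM after PBS and 28.0, 23.8 and 30.3 TPM after dopamine, with narrow groups far apart (log2(fold change) -1.71, SE 0.16, adjusted p = 3.04e-05). VEGFA, the growth factor of blood vessels, had 66.7, 52.9 and 78.8 and 29.9, 19.2 and 37.7 TPM (log2(fold change) -1.20, SE 0.15, adjusted p = 0.000310), and P4HA1, a collagen prolyl hydroxylase subunit, 139, 126 and 159.7 and 59.1, 56.7 and 49.5 TPM (log2(fold change) -1.33, SE 0.17, adjusted p = 0.000348). PPFIA4 (-1.64), P4HA2 (-1.39), FAM162A (-1.24), AK4 (-1.23), LOX (-1.19), STC2 (-1.13), NDRG1 (-0.99), KDM3A (-0.78) and CA12 (-0.67) fell too. The call of NDRG1 was lost without PBS replicate 3 (0.0732) and that of LOX without PBS replicate 2 (0.0757), Acute 1 h replicate 1 (0.0576) or Acute 1 h replicate 3 (0.0601). CXCR4, a chemokine receptor, was the gene that rose, from 67.2, 41.5 and 71.7 to 102, 104 and 158 TPM (log2(fold change) 1.05, SE 0.17, adjusted p = 0.00197). In the 6 libraries alone, 1 gene fell and none rose, and with the block in them 11 fell and 1 rose. Without either replicate 2, 14 fell and 1 rose.

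Of 9 tested HIF factors and regulators, HIF3A fell (log2(fold change) -0.51, SE 0.13, adjusted p = 0.0297), a call lost without PBS replicate 1 (0.0847), PBS replicate 2 (0.0685) or PBS replicate 3 (0.0855), and HIF1A did not pass (-0.088, adjusted p = 0.903). By total gene reads 1 of 10 rose and 2 fell. By introns 1 of 10 rose and 4 fell, against 3.76% and 9.04% of all genes tested, with a list median of -0.60. None of 16 genes of the TCA cycle and none of 13 mitochondrially encoded proteins passed by exon reads and edgeR, with list medians of -0.12 and 0.19. The mitochondrial share of reads was 4.25% to 12.4% after PBS and 5.07% to 12.6% after dopamine. Without any library over 10% mitochondrial reads, 566 DEGs and 2349 genes with an adjusted p under 0.05 were found by edgeR. Beyond this fit and the counts without either replicate 2, the part of this share in the results above was not tested.

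**Figure D2:**
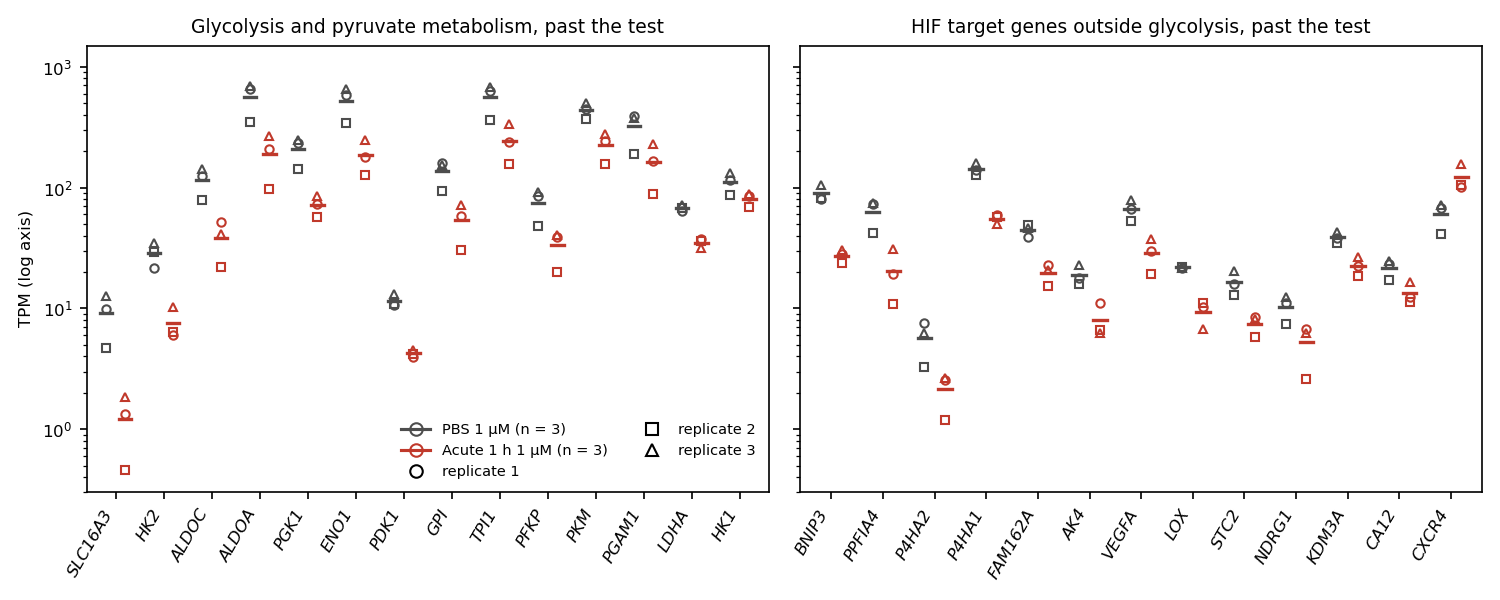
TPM on a log axis of genes of glycolysis and other HIF targets in 3 PBS libraries and 3 Acute 1 h libraries at 1 µM, with the replicate given by the marker and the mean by the bar. PGK1 lies at 142 to 249.8 TPM after PBS and 57.1 to 85.0 TPM after dopamine, and BNIP3 at 80.0 to 105 and 23.8 to 30.3 TPM.

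TXNIP (ENSG00000265972, chromosome 1, 145992435 to 145996579, - strand) had the lowest adjusted p among the genes that fell, together with a high level, and was chosen after its values were seen. It encodes an arrestin-like protein that binds thioredoxin, limits glucose uptake and is induced by glucose metabolites. Its TPM was 1162, 738 and 966 after PBS and 121, 126 and 128 after dopamine, and the dopamine libraries differed among themselves by a few TPM (log2(fold change) -2.88, SE 0.16, adjusted p = 1.58e-07). Its relatives ARRDC4, from 98.5, 67.8 and 91.1 to 33.7, 43.2 and 36.2 TPM (log2(fold change) -1.12, SE 0.18, adjusted p = 0.00197), and ARRDC3, from 109.8, 115 and 120.5 to 21.6, 27.0 and 15.8 TPM (log2(fold change) -2.38, SE 0.28, adjusted p = 0.000181), fell too and were chosen in the same way. PDP1, a phosphatase that activates pyruvate dehydrogenase, rose from 47.9, 29.6 and 45.7 to 129.9, 110.3 and 125 TPM (log2(fold change) 1.61, SE 0.15, adjusted p = 2.87e-05).

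Cholesterol synthesis genes, targets of SREBP2, gave 9 that fell and none that rose among 24 tested, with a median of -0.48. MSMO1 (ENSG00000052802, chromosome 4, 165327667 to 165343164, + strand), a sterol oxidase, had 638, 464 and 529 TPM after PBS and 229, 182 and 222 TPM after dopamine, without overlap (log2(fold change) -1.35, SE 0.12, adjusted p = 2.87e-05). INSIG1, which retains SREBP in the endoplasmic reticulum, had 320.4, 166 and 248 and 92.1, 72.0 and 109.8 TPM (log2(fold change) -1.39, SE 0.14, adjusted p = 5.08e-05). HSD17B7 (-1.20), FDFT1 (-0.94), STARD4 (-0.84), HMGCS1 (-0.69) and SQLE (-0.45) fell as well. The calls of HMGCS1 and SQLE were lost without PBS replicate 2 (0.0543) or Acute 1 h replicate 1 (0.0509) and without each library but Acute 1 h replicate 2 (0.0631 to 0.106), respectively. Fitted alone, the 6 libraries had 2 that fell, and with the block in them 9.

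Splicing regulators moved in both directions. Of 15 CLK kinases and SR splicing factors, 6 rose and 2 fell, with a median of 0.089. SRSF3 had 58.5, 32.8 and 54.4 TPM after PBS and 115, 160.0 and 157 TPM after dopamine (log2(fold change) 1.64, SE 0.17, adjusted p = 6.88e-05), and SRSF6 had 81.4, 67.1 and 75.5 and 172, 145 and 201 TPM (log2(fold change) 1.21, SE 0.11, adjusted p = 2.64e-05). SRSF7 (0.74) and TRA2B (0.89) rose by less, while SRSF2 (0.60) and SRSF10 (0.54) lost their calls without each library but Acute 1 h replicate 1 and Acute 1 h replicate 2 (0.0868 to 0.113) and without each library but Acute 1 h replicate 3 (0.0692 to 0.141). CLK1, a kinase that phosphorylates SR proteins, had 152, 130.4 and 134 and 45.7, 59.4 and 42.5 TPM (log2(fold change) -1.45, SE 0.21, adjusted p = 0.000985). CLK4 fell as well (log2(fold change) -0.82, SE 0.20, adjusted p = 0.0231), with its call lost without each library but PBS replicate 1 and Acute 1 h replicate 2 (0.0536 to 0.0673). Both kinases are known for intron-retaining transcripts that stay in the nucleus. With only the 6 libraries 2 rose and none fell, and with the block in them 4 rose and 2 fell. SFPQ, a splicing factor of long genes that was chosen after its values were seen, rose from 136, 134 and 141 to 442, 453 and 412 TPM (log2(fold change) 1.68, SE 0.18, adjusted p = 7.18e-05).

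Stress responses had few members past the test by exon reads. SLC7A11, the cystine transporter, was the gene that rose among 14 tested NRF2 targets, from 1.27, 1.10 and 2.00 to 3.56, 6.84 and 7.02 TPM (log2(fold change) 2.05, SE 0.32, adjusted p = 0.00160). HMOX1 (0.57, adjusted p = 0.713) and NQO1 (0.45, adjusted p = 0.318) did not pass. Of 20 genes of ATF4 and the unfolded protein response, PSAT1, an enzyme of serine synthesis, rose (log2(fold change) 0.68, SE 0.12, adjusted p = 0.00317) and HSPA5, the chaperone BiP, fell (log2(fold change) -0.53, SE 0.11, adjusted p = 0.0130). Of 13 heat shock genes, HSPA1B fell by exon reads (log2(fold change) -1.04, SE 0.22, adjusted p = 0.0132), a call lost without PBS replicate 1 (0.0715) or PBS replicate 3 (0.0513) and by total gene reads. Its reads are uncertain, because HSPA1A is a near-identical copy. By total gene reads 5 other genes of the 13 fell, the chaperones HSPA8 (-0.64, adjusted p = 0.00738), HSP90AB1 (-0.56, 0.00442), HSPH1 (-0.52, 0.00395), HSPD1 (-0.49, 0.00567) and HSP90AA1 (-0.46, 0.0471), against 3.55% of all genes tested that way. By exon reads the median log2(fold change) of these 3 lists was 0.037, -0.058 and -0.42.

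The lists of receptors, dopamine handling and striatal cAMP signaling held no call by exon reads in edgeR. None of the 6 tested dopamine and adenosine receptor genes passed by exon or total gene reads in edgeR, and by introns the adenosine receptor gene ADORA1 rose (1.77, adjusted p = 0.00142). DRD1 stood at 2.21, 0 and 2.40 TPM after PBS and 5.05, 4.09 and 6.08 TPM after dopamine (1.86, adjusted p = 0.146) and did not overlap between the groups, a difference that did not pass the test at this depth. DESeq2's Wald test called 1 of these 6 genes, and so did edgeR when every library with over 10% mitochondrial reads was left out. DRD2 stood at 2.44, 3.40 and 3.42 and 3.87, 2.74 and 2.43 TPM (-0.055, adjusted p = 0.966), DRD4 at 18.3, 1.77 and 16.4 and 6.79, 4.83 and 16.6 TPM and ADORA2A at 3.91, 1.19 and 0.577 and 5.01, 0.864 and 3.47 TPM. DRD3, DRD5 and ADORA3 were too low to be tested. By exon reads and edgeR none of 5 tested genes of dopamine synthesis, transport and breakdown, 10 of striatal cAMP signaling, 11 NMDA and AMPA receptor subunits and 12 GABA-A receptor subunits passed either, with list medians from -0.25 to 0.26. By total gene reads PDE10A, a striatal phosphodiesterase, rose (0.47, adjusted p = 0.0347), and the AMPA receptor subunit gene GRIA2 (-0.57, adjusted p = 0.0191) and the GABA-A receptor subunit gene GABRA2 (-0.59, adjusted p = 0.0138) fell. By introns PDE10A rose (0.45) and GRIA2 (-0.81) and PRKAR2B, a regulatory subunit of PKA, fell (-1.11).

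Cell type markers that passed by exon reads were few. GAD1, which makes GABA, fell from 8.08, 5.73 and 7.28 to 2.86, 3.27 and 2.09 TPM (log2(fold change) -1.29, SE 0.27, adjusted p = 0.0130), and GAD2 did not pass (0.29, adjusted p = 0.823). Among 6 excitatory neuron markers TBR1 fell (log2(fold change) -0.55, SE 0.11, adjusted p = 0.0100), and so did SLC17A7 (log2(fold change) -0.77, SE 0.19, adjusted p = 0.0278), with the call of SLC17A7 lost without PBS replicate 1 (0.100), PBS replicate 3 (0.0759) or Acute 1 h replicate 3 (0.0578). Among 8 radial glia markers HES1, HES5 and NES rose and VIM fell. NES, the intermediate filament nestin, had 429.5, 309 and 444 and 630.3, 469.5 and 751 TPM (log2(fold change) 0.66, SE 0.10, adjusted p = 0.00145), and VIM, vimentin, 2375, 1769 and 2463 and 1163, 801 and 1309 TPM (log2(fold change) -1.01, SE 0.099, adjusted p = 4.31e-05). SOX2 (-0.15, adjusted p = 0.573) and PAX6 (-0.14, adjusted p = 0.681) did not pass. Of 8 cycling cell markers, PCNA rose (0.57, adjusted p = 0.0220) and CCNB1 (-0.46, adjusted p = 0.0204) and CDK1 (-0.53, adjusted p = 0.0462) fell. These calls were lost without PBS replicate 1 (0.0915) or PBS replicate 2 (0.0603) for PCNA, without PBS replicate 1 (0.0684) or Acute 1 h replicate 1 (0.0576) for CCNB1, and for CDK1 with the replicate block and without each library but Acute 1 h replicate 2 (0.0673 to 0.134). By total gene reads 4 of the 8 fell and none rose, TOP2A (-0.53, adjusted p = 0.00750), BUB1 (-0.60, 0.00473), CCNB1 (-0.71, 0.0184) and CDK1 (-0.71, 0.00477). By introns 6 of the 8 fell, against 9.04% of all genes tested, with a median of -1.25. OLIG2, a factor of the oligodendrocyte lineage and of ventral progenitors, had 0.228, 0 and 0.370 TPM after PBS and 5.46, 1.97 and 3.06 TPM after dopamine (log2(fold change) 4.13, SE 0.86, adjusted p = 0.0118), with the call lost without PBS replicate 1 (0.0629). POSTN (-2.36) and COL1A1 (-1.02), matrix genes of mesenchymal cells, fell from low levels of 4.08, 3.04 and 3.76 and 8.64, 3.49 and 7.47 TPM. The call of COL1A1 was lost without PBS replicate 1 (0.0744) or PBS replicate 3 (0.0619). Mesenchymal markers summed to 52.5 to 109 TPM after PBS and 33.6 to 72.2 TPM after dopamine, and COL1A1 and POSTN were the 2 of 9 that passed. None of the tested markers of astrocytes (6 genes), interneurons of the medial ganglionic eminence (2), endothelium (3), microglia (1) and pluripotent cells (1) passed by edgeR. Whether the share of any cell type differed between the groups was not tested.

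**Figure D3:**
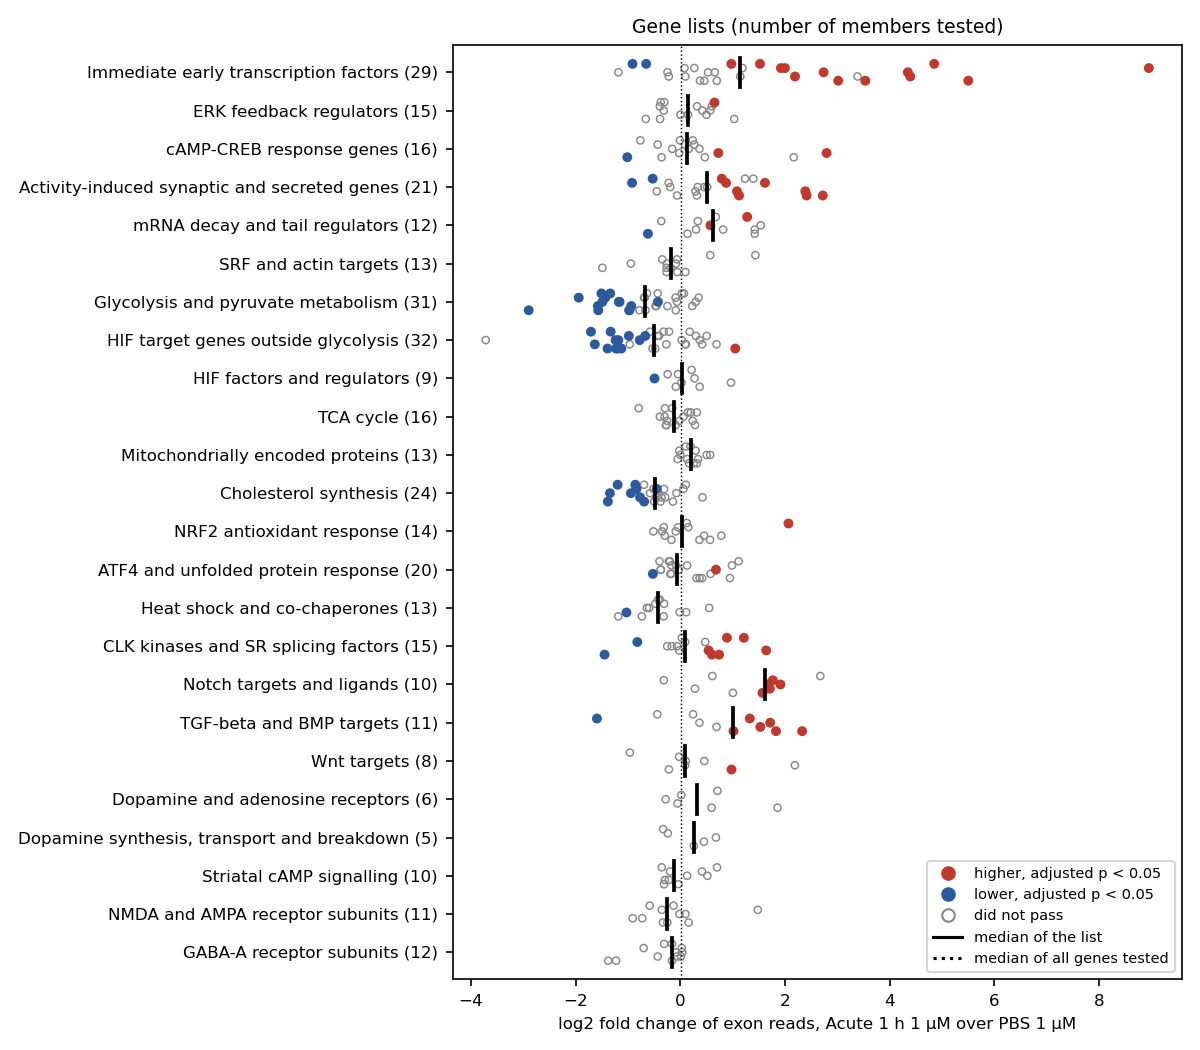
log2(fold change) of Acute 1 h against PBS at 1 µM for the members of 24 gene lists, each point a gene (filled where the adjusted p is under 0.05), with the list median as a bar and the median of all 16541 genes tested, 0.020, as a dotted line. The highest list median is that of Notch targets and ligands, 1.62, and the lowest that of glycolysis and pyruvate metabolism, -0.68.

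Beyond the lists, the 15 DEGs with the largest change in each direction and no overlap were mostly low. Apart from the immediate early genes, the list of 15 that rose held OLIG2, the lncRNAs AC092053.4, AC079594.2 and AP000662.1 and the genes SYNC, CHRNA10, MUC6, SERPINB8 and STAT4. The calls of MUC6 (3.56, adjusted p = 0.0427) and STAT4 (3.08, adjusted p = 0.0465) were lost with the replicate block, and without each library but Acute 1 h replicate 1 (0.0502 to 0.150) for MUC6 and without each library but Acute 1 h replicate 1 (0.0817 to 0.131) for STAT4. SYNC, a muscle filament protein, had no exon read after PBS and 5.30, 10.1 and 1.95 TPM after dopamine, at least 63.1-fold higher against 3 reads over the PBS group (adjusted p = 0.0362). By total gene reads, however, its log2(fold change) was 0.51 (adjusted p = 0.542), and by introns it fell (-1.89, adjusted p = 0.0346). The exon call of SYNC was lost without each library but Acute 1 h replicate 3 (0.0629 to 0.106). CHRNA10, a nicotinic receptor subunit, had none after PBS and 1.65, 1.04 and 0.840 TPM after dopamine, at least 8.56-fold higher, a call (adjusted p = 0.0316) that was lost without each library but Acute 1 h replicate 2 and Acute 1 h replicate 3 (0.0646 to 0.0980). The call of AC092053.4 was lost without PBS replicate 2 (0.0651), PBS replicate 3 (0.103) or Acute 1 h replicate 1 (0.0862), that of AC079594.2 without PBS replicate 1 (0.0752) or PBS replicate 2 (0.0522) and that of SERPINB8 without each library but PBS replicate 1 and Acute 1 h replicate 1 (0.0512 to 0.0942).

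Among the 15 that fell most, PMCH, the precursor of melanin-concentrating hormone, had 27.1, 29.6 and 23.5 TPM after PBS and 0, 1.07 and 3.61 TPM after dopamine (log2(fold change) -4.01, SE 0.66, adjusted p = 0.00239). CPLX3, a complexin of synaptic release, had 2.60, 7.48 and 2.41 and 0.318, 0 and 0 TPM (log2(fold change) -5.46, SE 1.10, adjusted p = 0.00919). GPNMB, a lysosomal glycoprotein, had 5.30, 3.75 and 5.74 and 0.738, 0.333 and 0.226 TPM (log2(fold change) -3.53, SE 0.45, adjusted p = 0.000377), and ALOX15, a lipoxygenase, 8.02, 4.91 and 9.75 and 0.188, 0.594 and 1.74 TPM (log2(fold change) -3.07, SE 0.49, adjusted p = 0.00197). The antisense lncRNA OXCT1-AS1 had 5.54, 5.85 and 5.63 and 0, 0.181 and 0.820 TPM (log2(fold change) -3.98, SE 0.68, adjusted p = 0.00317). BLNK, AC009065.6 and AL133353.2 were among the 15 (-4.57, -4.08 and -4.10) and lost their calls with the replicate block. BLNK also lost it without any library in turn (0.0536 to 0.113), AC009065.6 without each library but Acute 1 h replicate 3 (0.0663 to 0.125) and AL133353.2 without each library but Acute 1 h replicate 3 (0.0622 to 0.0971). AL163952.1 had no exon read after dopamine and was at least 10.1-fold lower against 3 reads over that group, but its log2(fold change) by total gene reads was -0.29 (adjusted p = 0.757), and its call was lost without any library in turn (0.0555 to 0.0795). KDM2B-DT and PXDNL were lower by exon reads (-4.31 and -3.68) and not by total gene reads (0.0076 and 0.42). Their exon calls were lost without each library but Acute 1 h replicate 2 (0.0594 to 0.0995) and without PBS replicate 3 (0.0613) or Acute 1 h replicate 3 (0.0595), respectively. At higher levels, SEZ6L, a neuronal membrane protein, fell from 128, 87.1 and 129 to 33.4, 27.5 and 39.3 TPM (log2(fold change) -1.76, SE 0.13, adjusted p = 3.34e-06). By total gene reads its log2(fold change) was -0.71 (adjusted p = 0.00769), and by introns it rose (1.13, adjusted p = 0.00386). CXCL14, a chemokine, fell from 89.5, 76.8 and 79.9 to 13.5, 19.1 and 22.3 TPM (log2(fold change) -2.14, SE 0.28, adjusted p = 0.000485). SPP1, osteopontin, fell from 56.7, 69.2 and 60.4 to 16.2, 22.9 and 18.8 TPM (log2(fold change) -1.68, SE 0.32, adjusted p = 0.00660). IGFBP2 fell from 613, 265 and 662 to 189.7, 50.7 and 267 TPM (log2(fold change) -1.61, SE 0.39, adjusted p = 0.0273), a call lost without PBS replicate 1 (0.0820), PBS replicate 3 (0.102) or Acute 1 h replicate 1 (0.0636) and by total gene reads. These 4 were chosen after their values were seen.

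Total gene reads, exon and intron reads together, gave 390 DEGs among 22537 genes tested (1.73%), 215 higher (0.954%) and 175 lower (0.777%). Of these, 213 were also DEGs by exon reads, 53.4% of the exon DEGs and 54.6% of the gene-read DEGs. EGR1 (4.23, adjusted p = 3.00e-06), FOS (3.45, 3.09e-05), FOSB (4.33, 0.00399), HES1 (1.51, 0.00442), PGK1 (-1.52, 0.000376) and TXNIP (-3.05, 3.00e-06) passed with both counts, the pairs giving log2(fold change) and edgeR's adjusted p. An adjusted p under 0.05 was reached by 1314 genes (5.83%), 514 higher (2.28%) and 800 lower (3.55%). By list, 11 immediate early transcription factors rose and 1 fell, 13 genes of glycolysis and 15 other HIF targets fell, 12 genes of cholesterol synthesis fell, and 4 Notch genes rose. JUN (adjusted p = 0.0527), EGR4 (0.0621), IER5L (0.103) and HES5 (0.101) did not pass with total gene reads. NES did not either (0.0784).

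Reads on introns were tested as a readout beside the exons. They can come from RNA that is not yet spliced, from intron-retaining transcripts or from overlapping genes, which were not told apart. Of 19649 genes, 2516 passed (12.8%), 739 higher (3.76%) and 1777 lower (9.04%), with a median over all genes of 0.13 on the log2 scale, so intron changes are to be read against that shift. Of the 227 exon DEGs that were higher, 189 could be tested by introns, where 46 passed in the same and 7 in the opposite direction, and their median log2(fold change) was 1.36 by exons and 0.82 by introns. Of 143 lower DEGs that could be tested, 36 passed in the same and 2 in the opposite direction, with medians of -1.35 and -0.55. Of the immediate early transcription factors, 15 of 29 could be tested by introns, of which NR4A3 (3.04, adjusted p = 0.00156) and ATF3 (1.34, adjusted p = 0.0386) rose. HES1 (2.14, adjusted p = 0.0452) and HEY1 (3.25, adjusted p = 0.0166) rose by introns too, and SMAD7 did (2.79, adjusted p = 0.0196).

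By introns 17 of 24 cholesterol synthesis genes fell and the list's median was -1.53. FDFT1, squalene synthase, had 2676, 2227 and 2041 intron reads after PBS and 173, 339 and 252 after dopamine, a log2(fold change) of -3.09 (adjusted p = 1.66e-05) against -0.94 by exons. HMGCS1 had 2512, 1995 and 1942 and 196, 373 and 311 intron reads (-2.77, adjusted p = 1.23e-06, against -0.69 by exons). TXNIP had 162, 201 and 110 and 0, 15 and 3 intron reads (-4.73, adjusted p = 5.48e-05). For all 3 genes the dopamine libraries lay below all PBS libraries. Of 32 tested genes of glycolysis and pyruvate metabolism 11 fell by introns and 1, HK1, rose (0.83, adjusted p = 0.0172). ENO1 fell by introns (-1.52, adjusted p = 0.0107), and ALDOA did not pass (-0.79, adjusted p = 0.526). SRSF3, which rose by exons, did not pass by introns (-0.26, adjusted p = 0.578). Among genes past both tests, PGBD2 (3.35), HEY1, AC079594.2 (3.15), LINC00680 (3.37) and CABP7 (3.15) had the largest intron increase. SLC16A3 (-5.41), TXNIP, AC012459.1 (-4.54), C14orf28 (-3.42) and UBALD2 (-3.38) had the largest decrease. The exon calls of PGBD2, HEY1, SLC16A3 and TXNIP held without each library of the groups in turn, and those of the other 6 genes did not. The call of AC079594.2 was lost without PBS replicate 1 (0.0752) or PBS replicate 2 (0.0522), that of AC012459.1 without PBS replicate 2 (0.0579) or Acute 1 h replicate 1 (0.0601), that of C14orf28 without each library but PBS replicate 1 and Acute 1 h replicate 2 (0.0505 to 0.0698) and that of UBALD2 without each library but Acute 1 h replicate 1 (0.0528 to 0.160). CABP7 lost it without each library but Acute 1 h replicate 1 and Acute 1 h replicate 2 (0.0505 to 0.123), and LINC00680 without each library but PBS replicate 1 and Acute 1 h replicate 1 (0.0635 to 0.141) and with the replicate block.

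**Figure D4:**
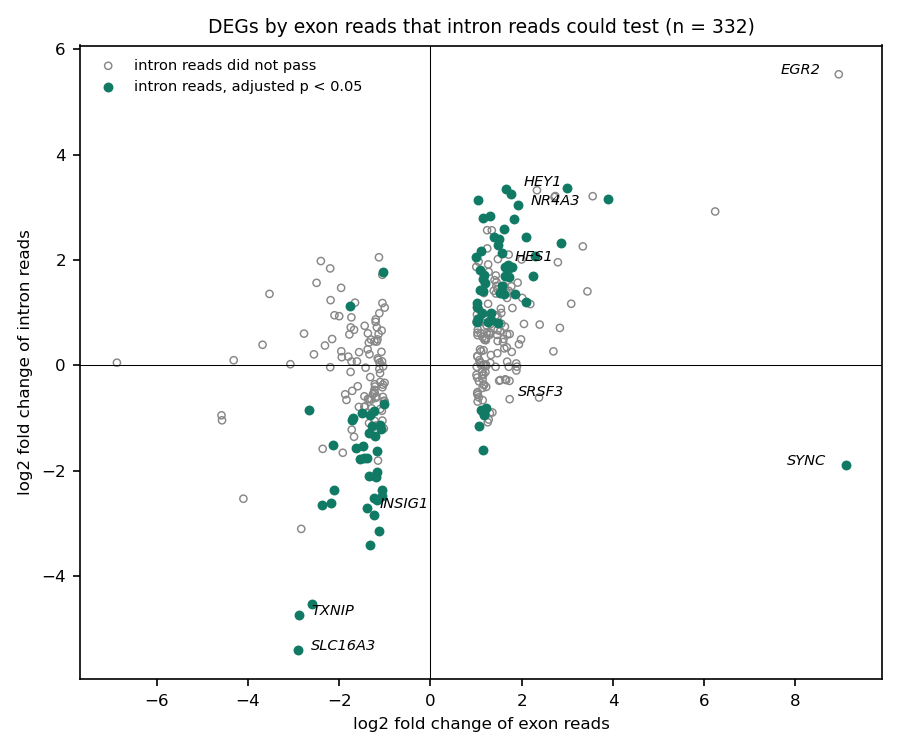
log2(fold change) by exon reads (x axis) and by intron reads (y axis) of the 332 DEGs of Acute 1 h against PBS at 1 µM that could be tested by both. Of the 189 DEGs higher by exons 46 passed the intron test upward, and of the 143 lower ones 36 passed it downward.

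The same hour after dopamine was also sampled at 1 mM, with 3 PBS libraries of its own, so the change at 1 µM and the change at 1 mM share no library. The difference was tested in a fit of the 30 libraries of both doses. It is given as the log2(fold change) at 1 µM minus that at 1 mM. In that fit 1 library stood apart from its group, replicate 1 of Acute 24 h at 1 mM, with EGR1 at 696 TPM against 27.8 and 25.8 TPM in replicates 2 and 3. It belongs to neither side of the difference, but it enters the estimate of spread. With it, 369 of 18390 genes passed (2.01%), 169 above 0 (0.919%) and 200 below 0 (1.09%), and without it 965 of 18913 genes passed (5.1%), 470 above 0 (2.49%) and 495 below 0 (2.62%). Adjusted p values are given with and then without this library.

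EGR1 had 19.2, 13.9 and 17.8 TPM in the 1 mM PBS libraries and 532, 483 and 551 TPM 1 h after 1 mM, above all 3 libraries at 1 µM. The difference of the fold changes was -0.68 (SE 0.92 with and 0.29 without the library, adjusted p = 0.800 and 0.179). For FOS it was -0.46 (adjusted p = 0.757 and 0.414) and for FOSB -2.36 (adjusted p = 0.0889 and 0.0377). Of the 29 immediate early transcription factors, KLF6 (-1.71, adjusted p = 0.0221 and 2.26e-06), ATF3 (-2.39, 0.00592 and 6.26e-06) and IER3 (-1.90, 0.00317 and 0.000153) passed with the library, and 6 passed without it, 1 above and 5 below 0. KLF6 fell at 1 µM and stood at 52.9, 50.7 and 51.4 TPM after PBS and 91.6, 79.2 and 82.6 TPM after dopamine at 1 mM. Leaving out any 1 mM library of PBS, or replicate 1 or 3 of Acute 1 h at 1 mM, while keeping that library, gave KLF6 an adjusted p of 0.0510 to 0.0644.

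Several Notch genes had the larger change at 1 µM. In both fits 4 of the 10 passed, all above 0, with a median difference over the list of 1.12 against 0.011 over all genes. HES1 stood at 209.8, 168 and 178 TPM in the 1 mM PBS libraries and 186, 182 and 184 TPM 1 h after 1 mM, values that overlap (difference 1.50, SE 0.25, adjusted p = 0.00145 and 8.18e-05). HEY1 stood at 128, 112 and 106 TPM and 149.9, 131 and 135 TPM (difference 1.41, adjusted p = 3.83e-05 and 6.26e-06). HES5 (2.65, adjusted p = 0.00742 and 0.00212) and NRARP (1.28, adjusted p = 0.00303 and 0.00129) were the other members past the test. ID2 (1.49, adjusted p = 0.000382 and 1.15e-05) and NPTX1 (1.41, adjusted p = 0.00181 and 0.000600) were also above 0. CCN2 lay on the other side, at 15.9, 26.0 and 18.7 TPM after PBS and 616, 483 and 535 TPM after dopamine at 1 mM (difference -3.76, adjusted p = 0.000621 and 6.70e-07), with CCN1 at -3.42 (adjusted p = 0.000849 and 4.93e-06). Of 13 SRF and actin targets, 6 passed with the library. Without it 7 of 13 passed, all below 0, among them ACTA2 (-4.04, adjusted p = 6.66e-07). At 1 mM 11 of the 13 rose and none fell, while none passed at 1 µM. Of 15 ERK feedback regulators, none passed with the library and 6 passed without it, all below 0.

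Of 32 tested genes of glycolysis and pyruvate metabolism, PKM passed the test of the difference with the library (-1.20, adjusted p = 0.00176 and 3.14e-05). Without it, 3 of 33 passed, 2 above and 1 below 0. None of 24 genes of cholesterol synthesis passed in either fit by edgeR. Of 32 tested HIF targets outside glycolysis, 3 passed with the library. Without it 5 of 32 passed, all above 0, among them VEGFA (1.45, adjusted p = 0.0205). Against the PBS of each dose, 23 of the 32 fell and 1 rose at 1 mM, and 12 fell and 1 rose at 1 µM. The list medians were -1.14 and -0.51. PGK1 stood at 424, 393 and 308 TPM and 237, 161 and 151 TPM at 1 mM (difference -0.56, SE 0.27, adjusted p = 0.329 and 0.184). BNIP3 stood at 289, 245 and 187 TPM and 92.7, 51.7 and 44.8 TPM (difference 0.13, SE 0.32, adjusted p = 0.909 and 0.880). Both genes were thus lower after dopamine in every library at either dose. TXNIP was lower in the 1 mM PBS libraries, at 349, 460.1 and 339 TPM, than in the 1 µM PBS libraries, and stood at 388, 237 and 228 TPM after 1 mM (difference -2.54, SE 0.53, adjusted p = 0.0109 and 0.000206). ARRDC3 went from 149.7, 116 and 90.6 TPM to 363, 364 and 382 TPM at 1 mM, against the drop at 1 µM (difference -4.12, SE 0.70, adjusted p = 0.00152 and 3.87e-07). The libraries of the doses differ in depth, with 9584706 to 11026492 exon reads in the PBS libraries at 1 µM and 16122436 to 17320571 at 1 mM. Each dose had its own control cultures, so dose and experiment cannot be told apart.

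Levels in the other 1 µM conditions are given side by side, since those conditions share the PBS libraries. EGR1 stood at 4.24, 9.24 and 7.25 TPM 24 h after a single dose, at 55.2, 50.0 and 55.5 TPM 1 h after the last of repeated doses and at 7.76, 8.73 and 9.59 TPM 24 h after it. SOX21 stood at 34.0, 51.3 and 53.0, 149, 98.0 and 159.9 and 32.3, 30.1 and 24.1 TPM in the same order. PGK1 stood at 71.2, 82.3 and 89.5, 163, 104 and 197 and 234, 245 and 222 TPM. For EGR1 the single dose at 1 h was the highest of these conditions and Acute 24 h and Chronic 24 h overlapped PBS, whereas PGK1 at Acute 24 h, at most 89.5 TPM, lay below all PBS libraries. TXNIP stood at 544, 692 and 696, 245, 222 and 390.2 and 1232, 1254 and 1025 TPM, so that Acute 1 h held its lowest values. MSMO1 stood at 206, 251 and 278, 327, 206 and 373 and 497, 537 and 509 TPM.

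**Figure D5:**
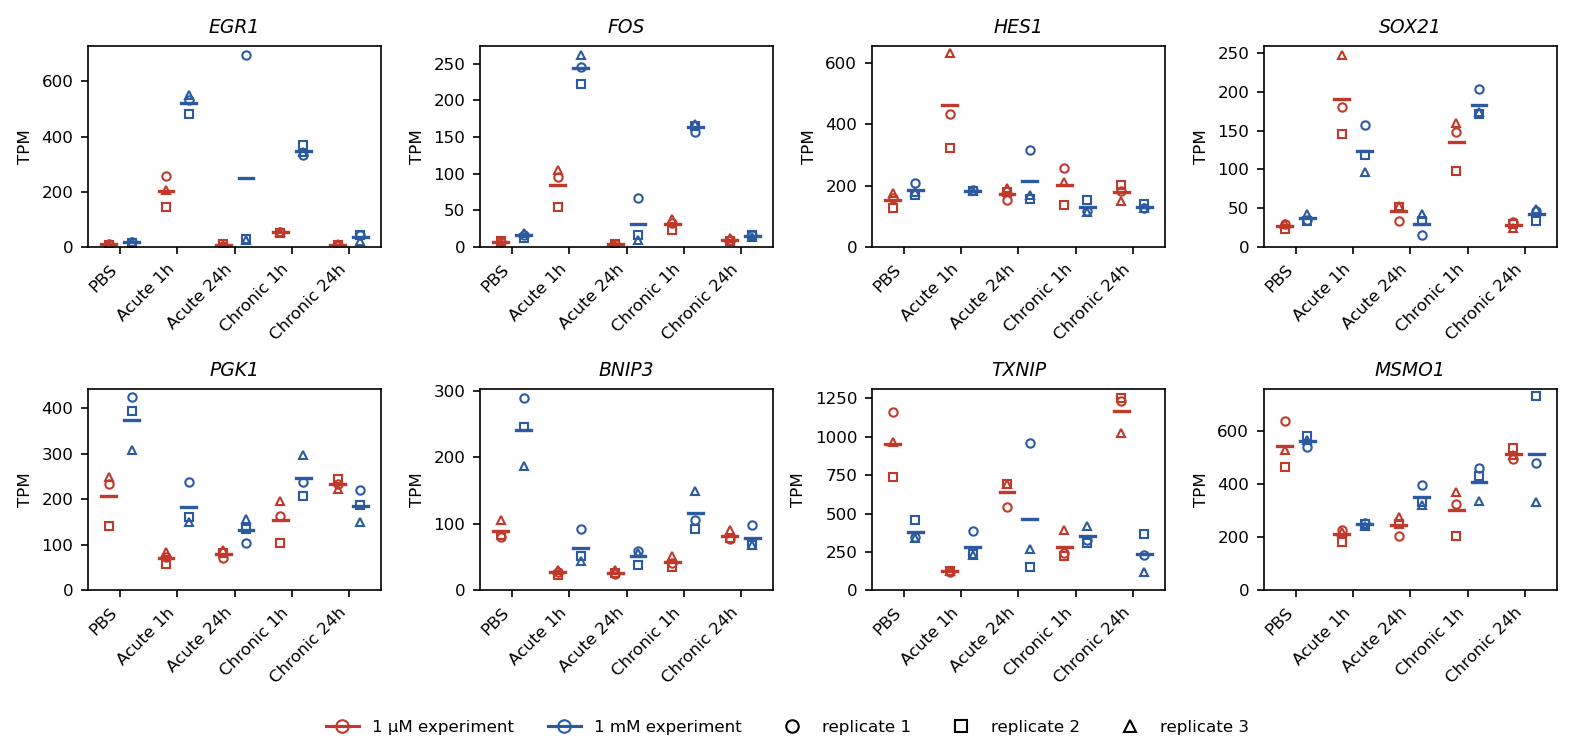
TPM of 8 genes in the 10 groups of the 1 µM (red) and 1 mM (blue) experiments, 3 libraries a group, with the replicate given by the marker and the group mean by the bar. HES1 stands apart in Acute 1 h at 1 µM (322 to 631 TPM), where Acute 1 h at 1 mM is at 182 to 186 TPM, and TXNIP is lowest in Acute 1 h at 1 µM (121 to 128 TPM).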

How the data were processed

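RNA-seq libraries of H9-derived hMSN-like cells were used as the authors deposited them, 1 table of 60676 genes per library; no column was left out as unassigned. Per the study's methods, the authors trimmed reads, mapped them to the human genome (hg38, as named in the submitters' processing notes) and counted them per gene in CLC Genomics Workbench. The deposited counts are raw exon reads and raw total gene reads. The deposited TPM values rest on exon reads and exon length. Strand-specific counting is not given in the sources used here, so reads of overlapping and antisense genes could be shared. Libraries were sequenced at more than 1 provider, and which library went where is not given in the sources used here, so a sequencing batch could not be examined. Intron reads were computed as total gene reads minus exon reads.

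Genes were kept by filterByExpr (minimum count 10, minimum total 15) and tested by edgeR 4.0.16 with TMM scaling, glmQLFit and glmQLFTest in R 4.3.3, in 1 fit of the 15 libraries at 1 µM, with Benjamini-Hochberg adjustment over all genes tested. The SE was obtained from edgeR's F statistic, as the size of the change over √F. The difference between the doses was an interaction in a fit of 30 libraries. DESeq2 1.42.0, the samples in the fit, read types, filters, a replicate block and each library left out in turn were alternatives. DESeq2 and edgeR were run on counts as deposited. Exon reads, uniquely mapped gene reads and the other columns were never mixed in a fit. Tables and figures were made in Python 3.11.15 with numpy 2.4.6, pandas 2.3.3 and matplotlib 3.10.9. On counts simulated for the exon comparison (16118 genes), 41 of 100 genes changed by 1 on the log2 scale and 85 of 100 changed by 2 were called, with 5 false calls, and for the difference between the doses (17895 genes) 29 and 84 of 100, with 5 false calls. The simulated libraries were independent, and changed genes were drawn from those above a minimum expected count. Libraries that stand apart, such as replicate 2 of each group, were not simulated. These figures therefore do not give the error rate of the real calls.

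Exon depth ran from 5755919 to 11026492 reads in the 6 libraries, and errors and floors from counts cover counting error only. No libraries held identical values. The replicate block treats libraries of the same number as a pair. Deviations of same-numbered PBS and Acute 1 h libraries from their group means correlated at 0.31, 0.588 and 0.442 over 13127 genes. The labels do not state this pairing, and PBS replicate 1 correlated more with Acute 1 h replicate 3 (0.574). These correlations therefore do not establish the pairing, and counts with the block depend on it. Named genes were the 15 DEGs with the largest change in each direction and no overlap between the groups, members of the lists, genes the study names at 1 h, and the 5 genes in each direction with the largest difference between the doses or the largest intron change among genes past the exon and intron tests. Genes chosen after their values were seen are named as such. The members of the comparison and the gene lists were chosen with earlier results of these data known, so the lists are descriptions and no set test was run. Receptor agonist libraries were not analysed here. Some genes of the lists are counted but not reported here by name.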

Additional observations from a re-analysis of the deposited data

Results flagged for a closer look

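The change 1 h after dopamine differed between 1 µM and 1 mM, by edgeR's test of the difference itself, for 369 genes, and the genes with the largest differences on the log2 scale were low in at least 1 dose. RSC1A1 had the lowest value (-9.24), with 2.41, 9.51 and 1.96 TPM after PBS and 4.12, 0.868 and 2.21 TPM after dopamine at 1 µM and 0 in all 3 PBS libraries at 1 mM against 6.57, 3.91 and 5.47 TPM after dopamine. SERPINA3, an acute-phase protease inhibitor, followed with -7.41, at 0 in all Acute 1 h libraries at 1 µM and 10.9, 9.78 and 10.2 TPM at 1 mM. EDN1, the precursor of the vasoconstrictor endothelin-1, had a difference of -6.40, with 2.56, 2.45 and 1.19 TPM after PBS and 0, 0 and 0.223 TPM after dopamine at 1 µM and 3.37, 5.37 and 3.31 and 18.8, 10.8 and 12.9 TPM at 1 mM. C11orf65 (-5.77) was at 0 in all Acute 1 h libraries at 1 µM. GBP1, an interferon-induced GTPase, had -5.70, with 0, 0.414 and 0 TPM after 1 µM and 8.71, 4.72 and 6.15 TPM after 1 mM. With 1 of the 12 libraries of these groups left out in turn, the call of RSC1A1 (adjusted p = 0.0281) was lost without each PBS library at 1 mM, replicates 1 and 3 of Acute 1 h at 1 mM or PBS replicate 2 at 1 µM (0.0548 to 0.0768). That of SERPINA3 (adjusted p = 0.0262) was lost without PBS replicate 2 at either dose, replicate 3 of Acute 1 h at 1 mM or replicates 1 and 2 of Acute 1 h at 1 µM (0.0509 to 0.0628), and that of C11orf65 (adjusted p = 0.0326) without each library but PBS replicates 1 and 3 at 1 µM (0.0521 to 0.0792). EDN1 (adjusted p = 0.00139) and GBP1 (adjusted p = 0.00842) kept theirs.

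On the other side, AL158154.3 (10.08) and KRT31, a hair keratin (7.16), were at 0 in all 1 µM PBS libraries and had exon reads in replicate 2 alone among the Acute 1 h libraries at 1 µM. KRT31 stood at 6.52, 5.12 and 4.79 TPM in the 1 mM PBS libraries and 0.628, 0.374 and 0.698 TPM after 1 mM. AC108690.1 (8.56), BX470102.2 (7.76) and LINC02664 (6.04) were below 3 TPM in every PBS and Acute 1 h library of both doses. The calls of AL158154.3 (adjusted p = 0.0485) and KRT31 (adjusted p = 0.0495) were lost without each of the 12 libraries but replicates 1 and 3 of Acute 1 h at 1 µM, at 0.0644 to 0.9999 and 0.0704 to 0.9999, the highest without replicate 2 of Acute 1 h at 1 µM (6.10 and 3.15 on the log2 scale). That of AC108690.1 (adjusted p = 0.0432) was lost without each library but replicate 3 of Acute 1 h at 1 µM (0.0571 to 0.125), and that of BX470102.2 without replicate 1 (0.0515) or 2 (0.0509) of Acute 1 h at 1 mM. Fitted differences of genes with a group at 0 depend on the prior count and give no bound.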

How the results depend on the processing

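The number of calls moved with the libraries in the fit, the test and, for the difference between the doses, the read type. DEGs by exon reads, 399, became 636 by DESeq2's Wald test, 169 with the 9 libraries of PBS and of 1 h, and 52 with only the 6 libraries compared, and 822 or 83 when the change had to reach 1.5-fold or 2 on the log2 scale. Genes with an adjusted p under 0.05, 954, became 1768 by the Wald test, 232 with the 9 and 52 with the 6 libraries. Alternatives chosen after seeing the data gave 609 with the 6 libraries and a replicate block, 1685 with 4 libraries and neither replicate 2, and 2349 without any library over 10% mitochondrial reads. Leaving out 1 library at a time gave 304 to 468 DEGs and 530 to 1108 genes by exon reads (530 without PBS replicate 1 and 531 without PBS replicate 3), 280 to 462 DEGs by total gene reads (390 in the full fit), and 1463 to 3141 genes by intron reads (2516 in the full fit, 1463 without Acute 1 h replicate 1). With only the 6 libraries, 28 DEGs were found by total gene reads and 993 genes by intron reads. The difference between the doses, 369 genes, became 159 with only the 12 libraries of the 4 groups, 7299 by total gene reads, and 138 to 965 with 1 library left out, 965 without replicate 1 of Acute 24 h at 1 mM and 731 without replicate 3 of Acute 1 h at 1 µM. Introns took 19.5% to 21.8% of gene reads in PBS at 1 mM and 12.3% to 13.2% in Acute 1 h at 1 mM. At 1 µM they took 22.3% to 23.6% and 20.2% to 31.2%, and total gene reads include these intron reads. The cause of the shifts in the counts was not tested.

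The replicate block was fitted as well, although the pairing by replicate number is not established. It gave 393 DEGs and 936 genes by exon reads, 395 DEGs by total gene reads, 2652 genes by intron reads and 298 for the difference between the doses. Besides the genes named above as losing their call with the block, it changed no call of the other genes named.

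Directions turned for 4 low genes. KDM2B-DT had 0.0076 by total gene reads and 0.020 by uniquely mapped gene reads, PXDNL 0.42 and 0.43, SYNC -1.14 by uniquely mapped reads, and the difference of C11orf65 between the doses was 2.98 by total gene reads. The depth, lowest in Acute 1 h replicate 1, limits what can be said of genes near 1 TPM.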

Other observations

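Outside the lists and the largest changes, 33 DEGs that were higher and 20 that were lower had a group mean of at least 50 TPM and groups that did not overlap, a choice made after the values were seen. ZNF436, a zinc finger gene, had 28.4, 17.9 and 26.0 TPM after PBS and 74.9, 61.8 and 79.7 TPM after dopamine (log2(fold change) 1.61, SE 0.12, adjusted p = 3.67e-06). The lncRNA AL683813.2 had 59.0, 38.0 and 59.7 TPM after PBS and 10.1, 13.1 and 11.4 TPM after dopamine (log2(fold change) -2.11, SE 0.20, adjusted p = 3.30e-05), and AC131392.1 had 44.1, 60.5 and 45.8 and 21.1, 7.63 and 20.8 TPM (log2(fold change) -1.70, SE 0.42, adjusted p = 0.0278), with its call lost without PBS replicate 2 (0.0842) or Acute 1 h replicate 2 (0.0693). FAM72D had 61.1, 66.8 and 55.4 and 12.6, 14.3 and 13.7 TPM (log2(fold change) -2.17, SE 0.24, adjusted p = 0.000121), but it shares near-identical copies in its family, so its reads are uncertain.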
